A study of Mus musculus with 12 samples.

Results

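The genes described here encode enzymes that burn fatty acids in mitochondria, together with Pdk4, a kinase that steers fuel use toward fat. A list of 9 genes was fixed by name: Cpt1a, Cpt1b, Cpt2, Acadm, Acadl, Acadvl, Hadha, Hadhb and Pdk4. Of these, 8 had a probe set annotated to them alone, among 18193 genes with such a probe set. A probe set is the group of short probes on an array that reads 1 transcript. All 8 passed the filter on low signal, as did 13312 genes in all.

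Long-chain fatty acids cross the mitochondrial membranes as carnitine esters, made outside by carnitine palmitoyltransferase 1 (Cpt1a or Cpt1b) and turned back to CoA esters inside by carnitine palmitoyltransferase 2 (Cpt2). Acyl-CoA dehydrogenases, which differ in the chain length they prefer (Acadvl, Acadl, Acadm), start each round of beta-oxidation. The trifunctional protein, built from Hadha and Hadhb, carries out the remaining steps for long chains. Pdk4 is not an enzyme of beta-oxidation: it phosphorylates and inhibits pyruvate dehydrogenase, which limits the entry of glucose carbon into the citric acid cycle. Many of these genes are known targets of the fatty acid-sensing PPAR receptors, which bind DNA with the partner receptor RXR. White adipose tissue stores fat as its main task and oxidises comparatively little of it.

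Adipose tissue RNA of C57Bl/6 mice was measured on 12 single-colour Affymetrix arrays in 3 groups of 4. One group was switched at 6 weeks of age to a diet rich in fat (HFD, fat giving 46% of its calories) for 14 days, and another for 5 days. The third stayed on chow, in which fat gave 13%. All mice had eaten chow until the switch and were housed in groups. The labels name neither the fat depot nor the sex, nor how old chow mice were when tissue was taken, so age and diet cannot be told apart. The labels also do not tie arrays to single animals, so every p measures the spread between these samples, which may be technical.

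Some arrays carried transcripts of neighbouring tissues. The mean of 9 epididymis markers was 10.26 log2 units in 14-day array 4 and 8.995 to 9.71 in 5-day arrays 1 to 3, against 6.97 to 7.61 in the remaining 8. This split came from Spink8, Adam7, Spint4 and Lcn5, the last of which also stood at 8.78 in chow array 3. Gpx5, Lcn8, Lcn9, Rnase10 and Adam28 did not show it, and all of these but Gpx5 lay under the filter on low signal. The smooth muscle mean peaked at 12.63, also in 14-day array 4. The skeletal muscle mean was 11.32 in 5-day array 2 and 11.61 in chow array 3, against 7.82 to 8.74 elsewhere. Liver markers ran from 9.88 to 13.12 in 14-day arrays, from 10.16 to 13.51 in 5-day arrays and from 9.21 to 12.49 in chow arrays. Adipocyte markers (8 of 10 listed had a probe set of their own) averaged 13.74 in 14-day array 4 and 14.04 to 14.24 in the other 11 arrays. The brown adipocyte gene Ucp1 lay between 6.91 and 7.35 in all 12 arrays, under the filter of 7.64. Macrophage markers had a lower mean at 14 days than on chow in 10 of 10 genes (median −0.56) and at 5 days in 9 of 10 (median −0.13), and mesothelium markers in 7 and 8 of 10 (medians −0.58 and −0.60), with 0 called. Medians over 5 tested brown adipocyte markers were −0.041 and −0.048. Among them the mitochondrial respiratory chain genes Cox8b and Cox7a1 differed at 5 days by 0.68 ± 0.28 and 0.75 ± 0.35 (adjusted p = 0.448 and 0.508). The other 3 were lower at 5 days: Ppargc1a by −0.62 ± 0.21, Cidea by −0.048 ± 0.138 and Dio2 by −0.049 ± 0.107. Within the 14-day group Cox8b and Cox7a1 were highest in arrays 1 and 3 (Cox8b 10.20 and 10.31, Cox7a1 8.64 and 8.70). On chow they were highest in array 3 (10.41 and 8.76), which was rich in skeletal muscle transcripts. At 5 days they were highest in array 2 (10.64 and 9.03), also rich in these transcripts, and array 4 (10.78 and 8.84). Over 3 cardiac and slow muscle markers the medians were −0.18 and −0.028. Fits with tissue marker covariates, or without some of these arrays, are given below as alternatives. The part of these tissues in the results was not otherwise tested. In bulk tissue fewer cells of a type and less RNA per cell cannot be told apart.

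All values below are log2 signals or log2 differences. Differences were fitted with limma over all arrays, are given with their standard error (SE), and were adjusted by Benjamini-Hochberg over the 13312 genes tested. A gene was called at an adjusted p under 0.05. Levels of different probe sets are not comparable and are not ranked. Values of each group are given in the order of arrays 1 to 4.

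Across the list, no gene passed the test in any comparison, and chow had the lowest group mean for all 8 genes. The highest mean was in 14-day arrays for Cpt1a, Cpt2, Acadvl and Hadhb and in 5-day arrays for Acadm, Acadl, Hadha and Pdk4. No neighbouring pair of group means differed past the threshold for any of them. The SD was largest in the 14-day group for all 8 genes.

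The carnitine palmitoyltransferases come first in the pathway. Cpt1a read 11.64, 11.25, 11.47 and 11.40 in 14-day arrays, 11.39, 11.20, 11.36 and 11.50 in 5-day arrays and 11.32, 11.33, 11.28 and 11.43 in chow arrays. The 3 groups overlapped, and the highest and second lowest of the 12 values both belonged to 14-day arrays. Cpt1a differed by 0.10 ± 0.09 (SE) at 14 days against chow and by 0.021 ± 0.087 at 5 days, with adjusted p = 0.809 and 0.955. Its other probe sets gave 0.24 ± 0.13 and 0.27 ± 0.15 at 14 days, the same direction with a larger difference.

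Cpt2 read 12.76, 12.59, 12.75 and 12.13 in 14-day arrays, 12.35, 12.43, 12.51 and 12.77 in 5-day arrays and 12.51, 12.33, 12.54 and 12.37 in chow arrays. Of the 14-day arrays, 3 lay above every chow array and array 4 lay below all of them. Its difference from chow was 0.12 ± 0.14 at 14 days (adjusted p = 0.851) and 0.080 ± 0.138 at 5 days (adjusted p = 0.88). The second probe set of Cpt2 lay under the filter. Cpt1b, the form of the enzyme typical of muscle, has no value here: the only probe set that names it is also annotated to the adjoining gene Chkb and to Gm44502, the transcript that runs through both. That probe set read 7.01 to 7.31, 7.07 to 7.22 and 7.02 to 7.53 in 14-day, 5-day and chow arrays, under the filter. Its highest value was in chow array 3, the array with the highest skeletal muscle markers.

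The acyl-CoA dehydrogenases come next, and of the 8 genes Acadl had the widest spread at 14 days, with an SD of 0.37. Acadl, of long chains, read 13.30, 13.05, 13.36 and 12.55 in 14-day arrays, 13.08, 13.06, 13.03 and 13.40 in 5-day arrays and 12.99, 12.95, 13.026 and 13.01 in chow arrays. All 5-day arrays lay above all chow arrays, with 13.03 as the lowest 5-day and 13.026 as the highest chow value. The 14-day arrays lay on both sides of chow.

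Acadl was the 1 gene of the 8 without overlap between 5-day and chow arrays, where 6.49% of all genes tested lay wholly higher at 5 days. The difference was 0.15 ± 0.15 (adjusted p = 0.788), and 0.062 without 5-day array 4. At 14 days Acadl differed from chow by 0.068 ± 0.153, with adjusted p = 0.927. A second probe set, under the filter, gave 0.13 ± 0.11 at 5 days and 0.21 ± 0.11 at 14 days.

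Acadm, of medium chains, read 13.74, 13.66, 13.78 and 13.21 in 14-day arrays, 13.60, 13.55, 13.63 and 13.80 in 5-day arrays and 13.64, 13.54, 13.52 and 13.59 in chow arrays. As with Cpt2, 14-day arrays 1 to 3 lay above every chow array and array 4 below all of them. Acadm differed from chow by 0.024 ± 0.110 at 14 days and by 0.073 ± 0.110 at 5 days, with adjusted p = 0.964 and 0.861. Acadvl, of very long chains, read 12.76, 12.63, 12.75 and 12.21 in 14-day arrays, 12.54, 12.54, 12.44 and 12.78 in 5-day arrays and 12.56, 12.54, 12.67 and 12.50 in chow arrays. Here 2 of the 14-day arrays lay above chow and 1 below. The differences from chow were 0.020 ± 0.117 at 14 days and 0.0080 ± 0.1173 at 5 days, with adjusted p = 0.973 and 0.987.

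The subunits of the trifunctional protein are encoded head to head on chromosome 5. In the RefSeq annotation of GRCm38.p6 their starts face away from each other across 272 bases, which are shown because they lie upstream of both genes. The stretch is chr5:30154981-30155252, plus strand, with Hadha leaving to the left and Hadhb to the right, and capitals mark GGGCGG (the GC box bound by Sp1-type factors).
Hadha-Hadhb: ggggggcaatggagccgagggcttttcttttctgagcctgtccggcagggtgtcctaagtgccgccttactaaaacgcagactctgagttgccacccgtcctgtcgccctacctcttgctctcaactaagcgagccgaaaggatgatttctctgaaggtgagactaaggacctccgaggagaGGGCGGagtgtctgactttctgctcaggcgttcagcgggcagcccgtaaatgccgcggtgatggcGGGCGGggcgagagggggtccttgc
GGGCGG on either strand was found in the 250 bases before the start of 5 of the 8 genes and in 32.7% of the 32851 promoters in the table. The 5 include Hadha and Hadhb, whose windows overlap in this stretch, so their matches are not independent.

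The alpha subunit gene Hadha read 12.28, 12.06, 12.39 and 12.02 in 14-day arrays, 12.12, 12.16, 12.16 and 12.33 in 5-day arrays and 12.14, 12.06, 12.24 and 11.96 in chow arrays. The beta subunit gene Hadhb read 13.55, 13.24, 13.53 and 12.93 in 14-day arrays, 13.20, 13.12, 13.27 and 13.31 in 5-day arrays and 13.28, 13.16, 13.20 and 13.23 in chow arrays. In both genes 14-day arrays 1 and 3 lay above every chow array. Array 4 of the 14-day group was the lowest of all 12 for Hadhb, whereas for Hadha chow array 4 was lower.

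Hadha differed from chow by 0.088 ± 0.092 at 14 days and 0.091 ± 0.092 at 5 days, with adjusted p = 0.84 and 0.781. Hadhb differed by 0.096 ± 0.118 and 0.010 ± 0.118, with adjusted p = 0.86 and 0.983. The other probe sets of Hadhb gave 0.055 ± 0.119 and 0.055 ± 0.145 at 14 days. The dimmer of them did not share the order of arrays: it read 8.44, 8.84, 8.33 and 8.63 in 14-day arrays, with arrays 1 and 3 lowest.

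Pdk4 had the largest difference of the 8 genes. It read 12.18, 12.15, 12.22 and 11.74 in 14-day arrays, 12.27, 12.179, 12.29 and 12.36 in 5-day arrays and 11.72, 11.85, 12.02 and 12.180 in chow arrays. At 5 days, 3 arrays lay above every chow array and the lowest, array 2, lay just under chow array 4. The chow arrays were spread more widely than the 5-day arrays, with an SD of 0.074 at 5 days and 0.20 on chow.

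Pdk4 was 1.26-fold higher at 5 days than on chow, with a 95% interval of 1.05 to 1.51 (0.34 ± 0.12 log2). The unadjusted p was 0.017 and the adjusted p = 0.391 by limma, so the gene was not called, and 577 genes ranked at or ahead of it by p. As single arrays were left out the difference ran from 0.26 (without chow array 1) to 0.41 (without chow array 4), and the lowest adjusted p was 0.0958 (without 14-day array 4). That array is in neither group compared and enters only the shared estimate of the spread. Without it the difference stayed at 0.34 and its SE was 0.088. At 14 days Pdk4 differed from chow by 0.13 ± 0.12, or 0.24 without 14-day array 4, and from the 5-day group by −0.20 ± 0.12. These had adjusted p = 0.814 and 0.999 with all arrays.

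**Figure D1:**
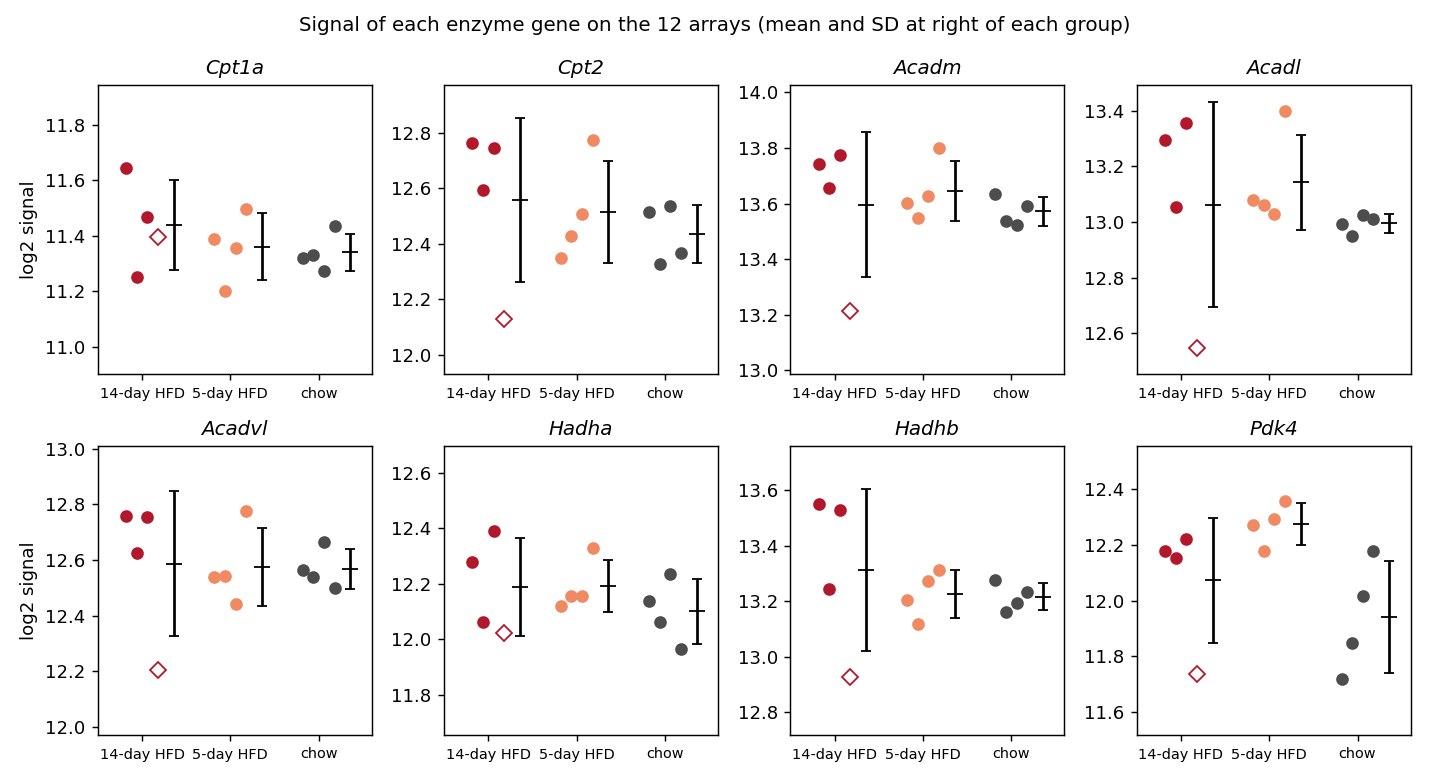
Log2 signal of the main probe set of each of the 8 genes (vertical axis, same span in every panel) in 14-day HFD, 5-day HFD and chow arrays; points are arrays 1 to 4 from left to right, the open diamond is 14-day array 4, and the bar gives the mean and SD (n = 4). Pdk4 stands at 12.179 to 12.36 in 5-day arrays against 11.72 to 12.180 on chow, and 14-day array 4 is the lowest of all 12 arrays for 5 of the 8 genes.

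The promoters of 3 of these genes are shown because PPAR response elements are repeats of AGGTCA spaced by 1 base, and the genes are known PPAR targets in other tissues. Each is the 250 bases before the start given by RefSeq (GRCm38.p6), read in the direction of the gene. Capitals mark AGGTCA on either strand in Cpt1a (chr19:3323051-3323300, plus strand) and Acadm (chr3:153944644-153944893, minus strand). In Pdk4 (chr6:5496279-5496528, minus strand), which holds no AGGTCA here, they mark the CCAAT box on either strand.
Pdk4: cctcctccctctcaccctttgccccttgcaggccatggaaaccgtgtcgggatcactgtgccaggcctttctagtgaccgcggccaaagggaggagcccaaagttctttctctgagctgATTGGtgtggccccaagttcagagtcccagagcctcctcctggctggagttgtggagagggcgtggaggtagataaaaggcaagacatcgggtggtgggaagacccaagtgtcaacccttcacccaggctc
Cpt1a: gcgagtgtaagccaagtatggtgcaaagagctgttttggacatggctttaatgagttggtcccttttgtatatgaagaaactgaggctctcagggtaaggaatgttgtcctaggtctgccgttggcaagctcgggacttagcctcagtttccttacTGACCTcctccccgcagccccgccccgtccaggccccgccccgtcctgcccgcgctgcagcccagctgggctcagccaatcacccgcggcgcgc
Acadm: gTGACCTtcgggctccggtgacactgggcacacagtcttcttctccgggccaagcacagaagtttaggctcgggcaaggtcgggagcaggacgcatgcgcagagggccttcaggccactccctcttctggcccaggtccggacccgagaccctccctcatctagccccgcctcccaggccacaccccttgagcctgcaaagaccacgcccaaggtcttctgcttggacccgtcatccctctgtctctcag
AGGTCA occurred in this window in 3 of the 8 genes (Acadm, Acadvl and Cpt1a) and in 14% of all promoters. A pair of AGGTCA copies with 1 base between them occurred in 0 of the 8 and in 0.0335% of all promoters. CCAAT occurred in Pdk4 and Cpt1a and in 33.8% of all promoters. GGGCGG and CCAAT were searched for after the sequences had been seen, on either strand as AGGTCA was. The matches are of letters only.

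Set against chow, the longer diet gave small differences. All 8 genes had a higher mean at 14 days, with a median difference of 0.092 and a range of 0.020 (Acadvl) to 0.13 (Pdk4). Of all genes tested 55.2% had a higher mean at 14 days, and the median was 0.016. By limma 0 of the 8 genes passed, as did 0% of all genes tested, and 0 had an unadjusted p under 0.05, where 3.67% of all genes were higher and 4.3% lower at that level. None of the 8 lay wholly above or below chow, as 2.37% and 2.26% of all genes did. The 95% intervals of all 8 contained 0 and reached from 0.83-fold (Acadl) to 1.34-fold (Cpt2).

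These values depended on single arrays of the 14-day group, in both directions. The median was 0.024 without array 1 and 0.023 without array 3, and in either case Acadm, Acadl and Acadvl had a lower mean than chow. Without array 3, Acadl differed by −0.030 and Acadm by −0.036. Without 14-day array 4 the median was 0.19, and 5 of the 8 genes had an unadjusted p under 0.05, where 6.16% of all genes were higher at that level. Cpt2 then differed by 0.26 ± 0.10, Acadl by 0.24 ± 0.09, Pdk4 by 0.24 ± 0.10, Hadhb by 0.22 ± 0.08 and Acadm by 0.15 ± 0.06. None of the 8 was called by limma, with a lowest adjusted p of 0.482, and 0.015% of all genes were. In 14-day array 4, 7 of the 8 genes were among the 3 lowest of the 12 arrays, so these shifts are not independent of each other. In the same array epididymis and smooth muscle markers were at their highest and adipocyte markers at their lowest, and the part of these in the result was not tested.

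The shorter diet was also set against chow. All 8 genes again had a higher mean on HFD, with a median difference of 0.076 and a range of 0.0080 (Acadvl) to 0.34 (Pdk4). This comparison shares its chow arrays with the one at 14 days, so the shared direction is not independent. Of all genes 49.5% had a higher mean at 5 days, with a median of −0.0015. By limma 0 of the 8 genes passed, as did 0% of all genes. Only Pdk4 had an unadjusted p under 0.05, and 4.43% of all genes were higher and 5.67% lower at that level. Without 14-day array 4 it was again the only one of the 8, beside 9.01% of all genes higher, and 0 of the 8 were called beside 0.924% of all genes. Apart from Pdk4 the 95% intervals contained 0 and reached from 0.841-fold (Acadvl) to 1.398-fold (Acadl).

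Here array 4 of the 5-day group carried most of the median. Without it the median was 0.0071, and Cpt1a, Cpt2, Acadvl and Hadhb had a lower mean than chow. That array had epididymis markers of 6.97, unlike the other 5-day arrays, and the highest liver markers of all 12 arrays at 13.51. Without chow array 3 and 5-day array 2, the arrays rich in skeletal muscle transcripts, the median was 0.12. With 5-day array 4 alone against chow, when all 4 HFD arrays with epididymis transcripts were left out, it was 0.23, a value that rests on 1 array in which all 8 genes were among the 3 highest of the 12.

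Set directly against each other, the HFD groups did not separate. At 14 days 4 of the 8 genes had a higher and 4 a lower mean than at 5 days, with a median of 0.0045 beside 0.012 over all genes. By limma 0 of the 8 passed, as did 0% of all genes, and 0 had an unadjusted p under 0.05, where 1.77% were higher and 0.789% lower at that level. The largest difference was the −0.20 of Pdk4, and all 8 intervals contained 0, from 0.724-fold (Pdk4) to 1.27-fold (Cpt2). Without 14-day array 4, 7 of the 8 were higher, and Hadhb differed by 0.21 ± 0.08 with an adjusted p of 0.355, the 1 gene of the 8 with an unadjusted p under 0.05 beside 5.11% of all genes.

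Weighting each array by its fit to the model was the one setting that gave calls among the 8 genes. By limma with array weights 6 of the 8 genes were called at 14 days against chow, all higher, where 22.4% of all genes were called and 14.7% were called higher. They were Hadhb (0.30), Cpt2 (0.31), Acadl (0.28), Acadm (0.17), Cpt1a (0.22) and Acadvl (0.17), with adjusted p from 0.00958 to 0.0497. At 5 days Pdk4 alone was called (0.29, adjusted p = 0.0314), where 15.1% of all genes were called and 7.99% higher. Between 14 and 5 days Cpt2, Acadvl and Hadhb were called, where 16.6% of all genes were called and 10.3% higher. The weight was 0.11 for 14-day array 4 and 0.26 for 5-day array 4, against 3.54 for 14-day array 1 and 3.20 for 5-day array 1.

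**Figure D2:**
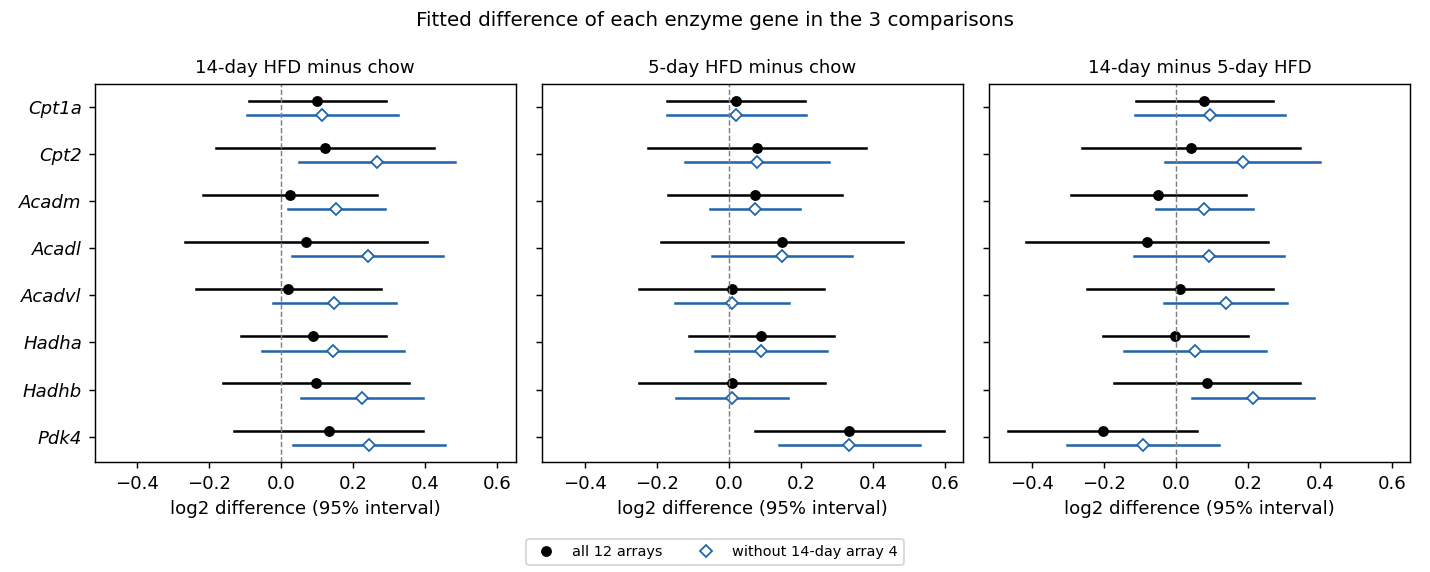
Fitted log2 difference (horizontal axis) of each gene with its 95% interval for 14-day HFD minus chow, 5-day HFD minus chow and 14-day minus 5-day HFD; black circles use all 12 arrays and open blue diamonds leave out 14-day array 4. With all arrays the interval of Pdk4 at 5 days (0.34, from 0.072 to 0.60) is the only one that does not contain 0.

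Most of the genes were high or low in the same arrays. In 5-day array 4 all 8 genes, and in 14-day arrays 1 and 3 7 of the 8, were among the 3 highest of the 12 arrays for that gene. In 14-day array 4, 7 of the 8 were among the 3 lowest, with Cpt1a as the exception. The mean of the 8 genes was 12.60 ± 0.24 in 14-day arrays, 12.62 ± 0.11 in 5-day arrays and 12.52 ± 0.04 in chow arrays (SD, n = 4). The arrays in which these genes were high also had the highest adipocyte marker means, at 14.24 in both of those 14-day arrays and 14.20 in that 5-day array. Liver markers were high there too: 13.51 for 5-day array 4, 13.12 for 14-day array 1, 12.10 for 14-day array 3. Chow array 3 had liver markers of 12.49 and a mean of the 8 genes of 12.56. For 5-day array 2 these values were 12.06 and 12.53. Whether adipocyte or liver content underlies the shared pattern was not tested.

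With the adipocyte marker mean as a covariate, a setting added after the values were seen, the median difference was 0.096 at 14 days and 0.024 at 5 days against chow. Pdk4 departed from the others on chow, where array 1 was 0.38 and array 2 0.25 under its mean over all arrays.

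**Figure D3:**
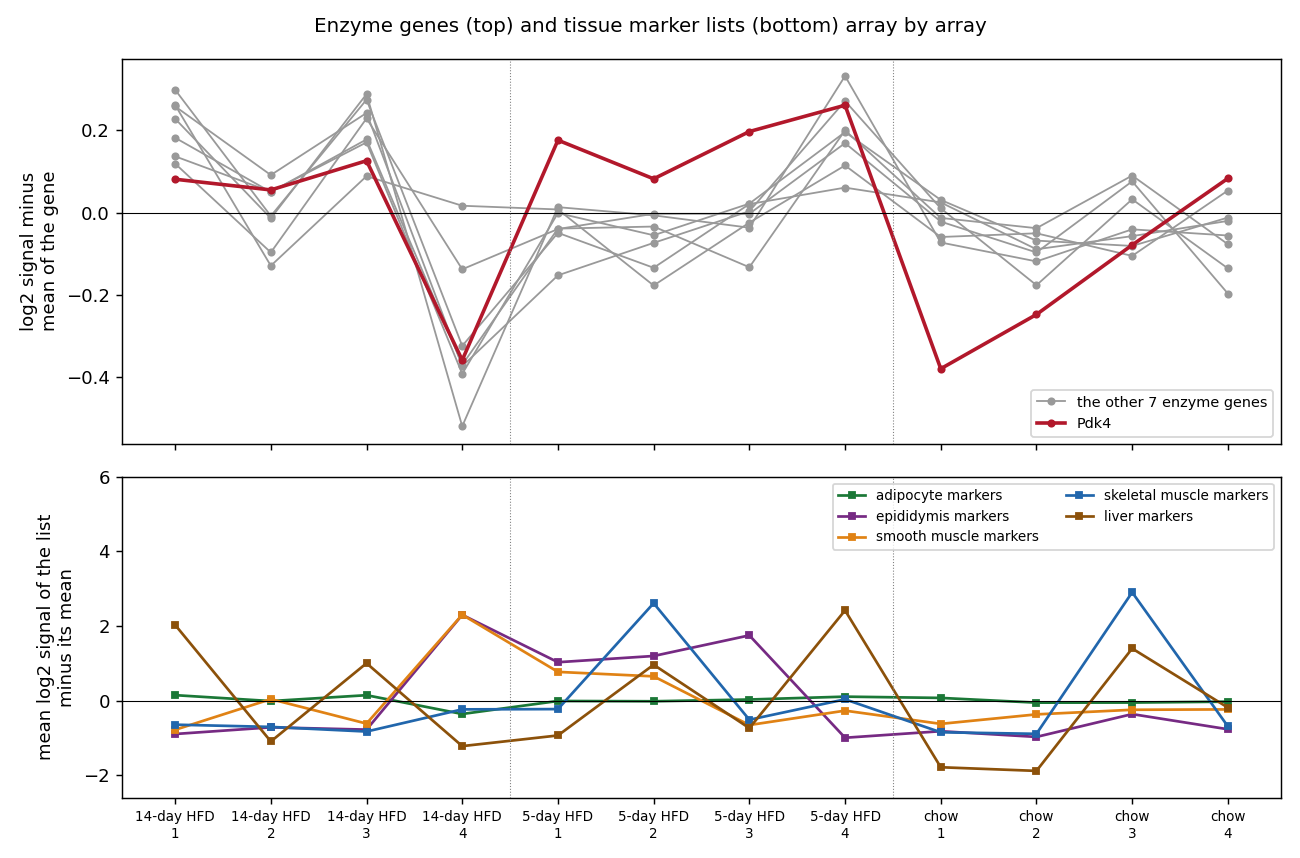
Top, log2 signal of each of the 8 genes minus its mean over the 12 arrays, with Pdk4 in red and the others in grey; bottom, mean log2 signal of 5 tissue marker lists minus the mean of each list. Lines join the values of a gene or list for tracing only; in 14-day array 4 the genes stand as low as −0.52 (Acadl) while epididymis and smooth muscle markers peak, and Pdk4 on chow is low in array 1 (−0.38) and array 2.

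The genes of most similar pattern were chosen as the 3 with the highest Pearson r among the 13304 other genes tested, a choice that selects high values. For the mean of the 8 genes they were Alkbh3 (r = 0.98, Spearman rho = 0.83), Rmc1 (0.98 and 0.78) and Capn2 (0.97 and 0.85) over 12 arrays. Without the 2 arrays farthest from the median of that mean, 14-day array 4 and 5-day array 4, r was 0.96, 0.96 and 0.94. For Pdk4 they were Angpt2, a vascular growth factor (0.88 and 0.85), the metallothionein gene Mt2 (0.87 and 0.89) and Tmem252 (0.87 and 0.90), with r of 0.88, 0.91 and 0.80 without the 2 arrays farthest from the median of Pdk4, chow array 1 and 14-day array 4.

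Genes that work next to these enzymes were read from 7 lists, and 0 of their genes passed the test in any comparison. Among 18 other enzymes of mitochondrial beta-oxidation, 8 were higher and 10 lower at 14 days (median −0.017), and likewise 8 higher and 10 lower at 5 days (median −0.0088). The dehydrogenase gene Hsd17b10 read 12.55 ± 0.29 in 14-day arrays, 12.59 ± 0.09 in 5-day arrays and 12.78 ± 0.06 in chow arrays (SD, n = 4). It differed from chow by −0.22 ± 0.12 and −0.19 ± 0.12. Echs1, the short-chain enoyl-CoA hydratase, differed by −0.19 ± 0.10 at 14 days. The isomerase gene Eci1 differed by −0.14 ± 0.11 and −0.15 ± 0.11, and the thioesterase gene Acot2 by −0.17 ± 0.08 at 5 days. In the other direction Acaa2 differed by 0.17 ± 0.13 at 5 days. It lay wholly above chow there and Acad12 wholly below, as 6.49% and 4.77% of all genes did. The mean of the 18 genes was 12.05 and 12.02 in 14-day arrays 1 and 3, 12.00 in 5-day array 4 and 11.57 in 14-day array 4. In the remaining arrays it was 11.84 to 11.95. The mean of the 8 genes was highest and lowest in the same arrays.

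Of 11 measured genes of the carnitine shuttle and acyl-CoA activation, 6 were higher at 14 days (median 0.027) and 4 at 5 days (median −0.055). Crot, the peroxisomal carnitine acyltransferase, differed by 0.53 ± 0.25 and 0.48 ± 0.25, with its highest value (12.22) in 14-day array 4. Its 5-day values of 11.07 to 11.36 lay above all chow values of 10.61 to 10.88, as in 6.49% of all genes tested. Acsl4, an acyl-CoA synthetase, stood at 12.16 in 14-day array 4 and 10.83 to 11.20 in 5-day arrays 1 to 3, and between 9.997 and 10.11 in the other 8 arrays, the same split as the epididymis markers. Acacb, which makes the malonyl-CoA that restrains Cpt1, differed by −0.31 ± 0.20 and −0.36 ± 0.20. Acsl3 differed by −0.14 ± 0.06 at 5 days, with 3 arrays below all chow arrays.

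Peroxisomal beta-oxidation genes were higher in 9 of 12 at both times, with medians of 0.045 at 14 days and 0.084 at 5 days. The thiolase gene Acaa1b read 11.52 ± 0.56 in 14-day arrays, 11.52 ± 0.36 in 5-day arrays and 10.94 ± 0.21 in chow arrays. It differed by 0.58 ± 0.26 at both times, with adjusted p = 0.621 and 0.489. Its highest values, 12.07 and 12.01, were in 5-day array 4 and 14-day array 1, which also had the highest liver markers. Abcd3, a peroxisomal fatty acid transporter, differed by 0.21 ± 0.08 and 0.14 ± 0.08. Ehhadh, the bifunctional enzyme, differed by 0.34 ± 0.15 between 14 and 5 days (adjusted p = 0.999).

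Among 12 PPAR and coactivator genes, 5 were higher at either time. Ppargc1a, a coactivator that drives mitochondrial genes, read 8.21 ± 0.42 in 14-day arrays, 7.98 ± 0.15 in 5-day arrays and 8.60 ± 0.35 in chow arrays. It differed from chow by −0.38 ± 0.21 and −0.62 ± 0.21. Its relative Ppargc1b differed by −0.36 ± 0.15 at 5 days, with all 5-day arrays (9.78 to 10.15) below all chow arrays (10.25 to 10.39). Of all genes tested, 4.77% lay wholly lower at 5 days. Esrra, an orphan receptor that acts with these coactivators, differed by 0.18 ± 0.07 at 14 days. The receptor gene Pparg differed from chow by −0.29 ± 0.16 at both times. The lowest adjusted p of this list was 0.382 at 5 days and 0.58 at 14 days. Among 12 other PPAR targets 5 were higher at either time, with medians of −0.0066 at 14 days and −0.020 at 5 days. Angptl4, an inhibitor of lipoprotein lipase, differed by 0.25 ± 0.15 at 5 days and Plin5, a lipid droplet protein, by 0.28 ± 0.17 at 14 days. The other 7 genes were lower at either time. Among these, Acot1 differed by −0.72 ± 0.49 at 5 days and Fabp3 by −0.36 ± 0.39 at 14 days. Txnip differed by −0.074 ± 0.047 at 14 days and −0.080 ± 0.047 at 5 days.

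The list around pyruvate dehydrogenase is the setting of Pdk4. Of 13 genes 7 were higher at 14 days and 8 at 5 days, with medians of 0.033 and 0.023. The sister kinase Pdk2 read 11.30 ± 0.12 in 14-day arrays, 11.13 ± 0.12 in 5-day arrays and 11.37 ± 0.12 in chow arrays, and differed by −0.24 ± 0.085 at 5 days (adjusted p = 0.39). Pdk3 differed by 0.38 ± 0.16 at 5 days, and its highest values (9.91 to 10.12) were in the arrays with epididymis transcripts. Pdp1, a phosphatase that reactivates the complex, differed by −0.27 ± 0.10 and −0.26 ± 0.10. All its 5-day arrays lay below all chow arrays, as in 4.77% of all genes tested, and its adjusted p there was 0.446 by limma. Of 3 measured ketone body enzymes, Oxct1, which uses ketone bodies, differed by 0.18 ± 0.12 at 5 days and Bdh1 by 1.09 ± 0.65 at 14 days, where 14-day array 4 stood at 10.98.

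**Figure D4:**
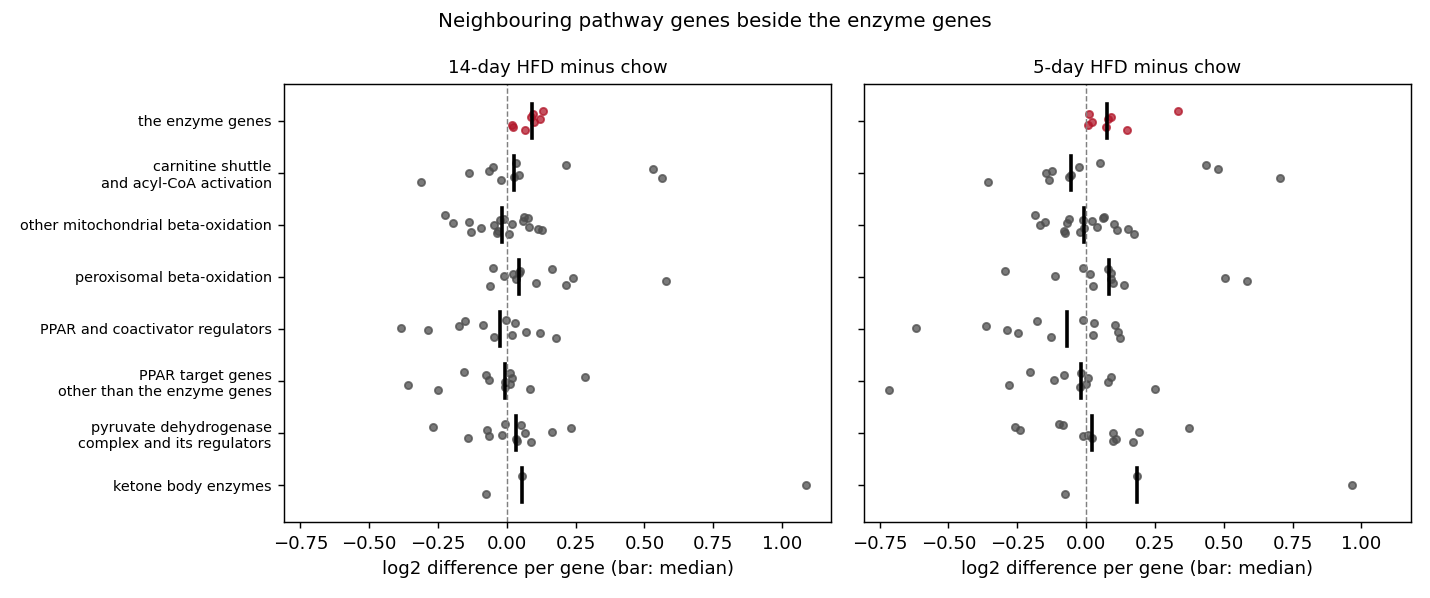
Fitted log2 difference of each gene (points) for 14-day HFD minus chow (left) and 5-day HFD minus chow (right), for the 8 enzyme genes in red and 7 neighbouring lists in grey, with the median of each as a bar. All 8 red points lie above 0 in both panels, with medians of 0.092 and 0.076, whereas the 18 other mitochondrial enzymes lie on both sides.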

How the data were processed

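The authors deposited 1 table of 45098 probe sets by 12 arrays. The deposited values are log2 signals, judged from their range (from 4.18) and near-equal array medians (8.09 to 8.14). The authors made these log2 values from total RNA copied into biotin-labelled cRNA and hybridised, per the labels' protocols; how they summarised and scaled them is not given in the sources used here. No renormalization was done, and precision is limited by 4 arrays per group.

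GEO's platform annotation gave 1 symbol to 34945 probe sets, several to 932 and none to 9160; 61 were controls. Of the named, 34741 matched RefSeq by Entrez ID, changing 0 symbols. Each gene used its probe set of highest mean, and genes under the 40th percentile of means (7.64) were left out. Limma 3.58.1 (R 4.3.3, eBayes with trend) was fitted to all 3 groups, two-sided, and tested on simulated data. The members and lists were chosen with earlier results of these data known. Named genes were the list itself, the 3 of smallest p per neighbouring list and comparison, and the 3 of most similar pattern. Cpt1b, with no probe set of its own, was left out of that pattern search. Promoters are RefSeq's (8 of 9 genes matched).

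Alternatives tried were quantile normalization, centring on array medians, dropping the filter, averaging or exchanging probe sets, eBayes without trend, array weights, fits of 2 groups alone, a block for the replicate number, tissue marker covariates, and arrays left out singly or together. The adipocyte covariate and leaving out the 4 HFD arrays with epididymis transcripts were added after the data were seen.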

Additional observations from a re-analysis of the deposited data

Results flagged for a closer look

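Of 24 sets of 4 arrays (8 genes in 3 groups), 2 held an array set apart from the other 3 by more than Dixon's 95% limit; chance flags about 1 in 20 such sets. Acadl stood at 13.40 (13.399) in 5-day array 4, with the next highest 5-day array at 13.08. Pdk4 stood at 11.74 (11.738) in 14-day array 4, with the next lowest 14-day array at 12.15.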

How the results depend on the processing

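No gene of the list passed under any alternative except array weights. There 1 gene (Pdk4, 0.29, adjusted p = 0.0314) was called at 5 days against chow, 6 at 14 days against chow (lowest adjusted p = 0.00958, Hadhb) and 3 at 14 against 5 days (Cpt2 0.32, Acadvl 0.21, Hadhb 0.30), beside 15.1%, 22.4% and 16.6% of all genes. Weights were 0.11 for 14-day array 4 and 3.54 for 14-day array 1. The median at 14 against 5 days was 0.20 with weights. Weights also turned Cpt2 (−0.0057) and Acadvl (−0.038) at 5 days, and Acadm (0.12), Acadl (0.20) and Hadha (0.14) at 14 against 5 days.

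Quantile normalization turned Cpt1a (−0.0096), Acadvl (−0.027) and Hadhb (−0.029) at 5 days and Acadvl at 14 days (−0.035) and at 14 against 5 days (−0.0077). The skeletal muscle covariate turned Acadm at 14 days (−0.0014) and Hadha at 14 against 5 days (0.020). The 3 tissue covariates turned Cpt1a at 5 days (−0.13) and 14 days (−0.095), and Cpt2 (−0.044), Acadvl (−0.061) and Hadhb (−0.0069) at 14 against 5 days. The adipocyte covariate turned Acadvl (−0.038) and Hadhb (−0.041) at 5 days, and Acadm (0.0034) and Hadha (0.027) at 14 against 5 days. Without the HFD arrays that carry epididymis transcripts, Cpt1a (−0.041), Cpt2 (−0.074) and Acadvl (−0.063) turned at 14 against 5 days. The second Acadl probe set gave 0.075 there. The cause of these shifts was not tested. Of 330 single-gene values under these settings, 25 turned, 10 passed the threshold (array weights) and 295 did neither. Dropping the filter, eBayes without trend, fits of 2 groups alone and the replicate block cannot change a fitted difference. The 24 values of each therefore could not turn. Averaging probe sets likewise cannot change genes with a single probe set. The 295 are thus no measure of how stable the directions are.

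As each array was left out in turn, the median ran from 0.023 to 0.19 at 14 days, 0.0071 to 0.10 at 5 days and −0.057 to 0.093 at 14 against 5 days, and 0 genes were called. At 14 days against chow Acadl ran from −0.030 to 0.24, Acadm from −0.036 to 0.15 and Acadvl from −0.038 to 0.15. At 5 days Acadvl ran from −0.059 to 0.052, Cpt1a from −0.024 to 0.073, Cpt2 from −0.0069 to 0.13 and Hadhb from −0.019 to 0.046. At 14 against 5 days Acadl ran from −0.18 to 0.092, Acadm from −0.11 to 0.079, Acadvl from −0.046 to 0.14, Cpt2 from −0.025 to 0.19 and Hadha from −0.069 to 0.053.

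With the replicate number as a block, 0 genes were called. Each number occurs once in every group, so the block cannot change the differences or their directions, only their SE and p. By limma the lowest adjusted p was then 0.563 at 5 days, 0.845 at 14 days and 0.999 between them. Deviations of same-numbered arrays correlated at −0.73 to 0.41. Differently numbered arrays were not compared, so whether the numbers pair the arrays cannot be told.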
